A study of Vitis vinifera with 40 samples.

Results

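The PR10 tandem family of grapevine (*Vitis vinifera*) was followed through 12 stages of somatic embryogenesis. Its members were the 9 listed PR10 identifiers between VIT_05s0077g01530 and VIT_05s0077g01690, which by their identifiers lie on chromosome 5, and all 9 of them were among the 29971 rows of the count table. They are VIT_05s0077g01530, VIT_05s0077g01540, VIT_05s0077g01550, VIT_05s0077g01560, VIT_05s0077g01570, VIT_05s0077g01580, VIT_05s0077g01600, VIT_05s0077g01670 and VIT_05s0077g01690, and are given from here on by the end of the identifier, as g01530 to g01690. The rule that lists them uses no measured value. The name PR10 came with the list, since the count table pairs the identifiers with no gene names.

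The embryos were raised from immature anthers of a single cultivar, and RNA of 50 to 70 embryos was pooled for each library. In all, 4 culture conditions followed one another, and each covered its own stages. Early induction (EI), preglobular (PG), globular 1 (G1) and globular 2 (G2) material grew with auxin in constant dark. Heart (H), torpedo 1 (T1), torpedo 2 (T2) and cotyledonary 1 (C1) embryos grew on hormone-free medium in constant dark, and cotyledonary 2 (C2) embryos on the same kind of medium in long days. Seedlings (S), seedlings with epicotyl (EP) and juvenile plants (JP) grew with gibberellin in long days. By the study's methods the induction medium held the cytokinin BAP beside the auxins, the hormone-free medium held activated charcoal, and the germination medium held the auxin IAA beside gibberellin, so that the conditions named here by one hormone differed in more than that hormone. A change of medium or light is therefore also a change of stage, and their effects cannot be told apart. The way of collecting changed too: by the methods, EI to G2 material was sieved, and H to C2 embryos were picked with forceps and needle. From G2 to H this change of handling cannot be told apart from that of medium and stage.

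PR10 proteins belong to the pathogenesis-related proteins, which plants make when attacked by microbes and also under drought, cold, salt or wounding. They are small, mostly intracellular proteins that share the fold of the birch pollen allergen Bet v 1, in which a large cavity can hold hydrophobic ligands such as cytokinins, flavonoids and fatty acids, and some of them cleave RNA in the test tube. Genes of this family are often found as tandem copies of high similarity, and several plants also express some of them without any pathogen, in roots, pollen, seeds or cultured tissue.

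The data were counts of reads per open reading frame in 40 libraries, with 5 libraries each in C2 and EP and 3 in each of the other 10 stages. Library totals ran from 13774534 to 68058022 with a median of 23096350. Levels are given as CPM, the usual measure of a gene's counts relative to the size of its library, scaled with trimmed mean of M values (TMM) factors, as mean ± SD over libraries. The EP libraries fell into separate sets: replicates 1 to 3 had totals of at most 17279403 and TMM factors of 0.394 to 0.424, while replicates 4 and 5 had totals of at least 48074612 and factors of 0.949 to 1.22. The mapping table of the study also lists another read length for C2 and EP than for the remaining stages, so read length and stage cannot be told apart at the transitions into and out of them. Where tandem copies are alike in sequence, reads of one may have been counted for another, so that the value of a single member is uncertain. The sum over the members does not depend on how reads were split among them. It would still change if such reads were dropped, counted more than once or counted for rows outside the list. In pooled embryos, fewer cells that carry a transcript and less of it per cell cannot be told apart.

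All 9 members passed the filter on low counts over the 40 libraries and all 9 differed between the 12 stages (edgeR quasi-likelihood F test, adjusted p from 2.23e-15 for g01670 to 5.52e-06 for g01530). Of all 24862 genes tested, 94.7% did so, and the members' 9 of 9 is near that share. By stage means on the TMM scale, g01530, g01540, g01550, g01560 and g01600 had their highest level at H, g01580 and g01670 at EP, and g01570 and g01690 at JP. For g01540, g01550, g01560 and g01600 the 3 heart libraries lay above every library of the stage that came next in order. The heart levels of g01530 and g01580 overlapped with EP, and for g01570 the leading stages JP and H overlapped as well. The order of these stages depended on the scaling. On library totals alone, the H libraries of g01570 held 180 to 269 CPM and its JP libraries 110 to 156. Those of g01580 held 2951 to 4128 CPM at H and 1568 to 3328 at EP.

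**Figure D1:**
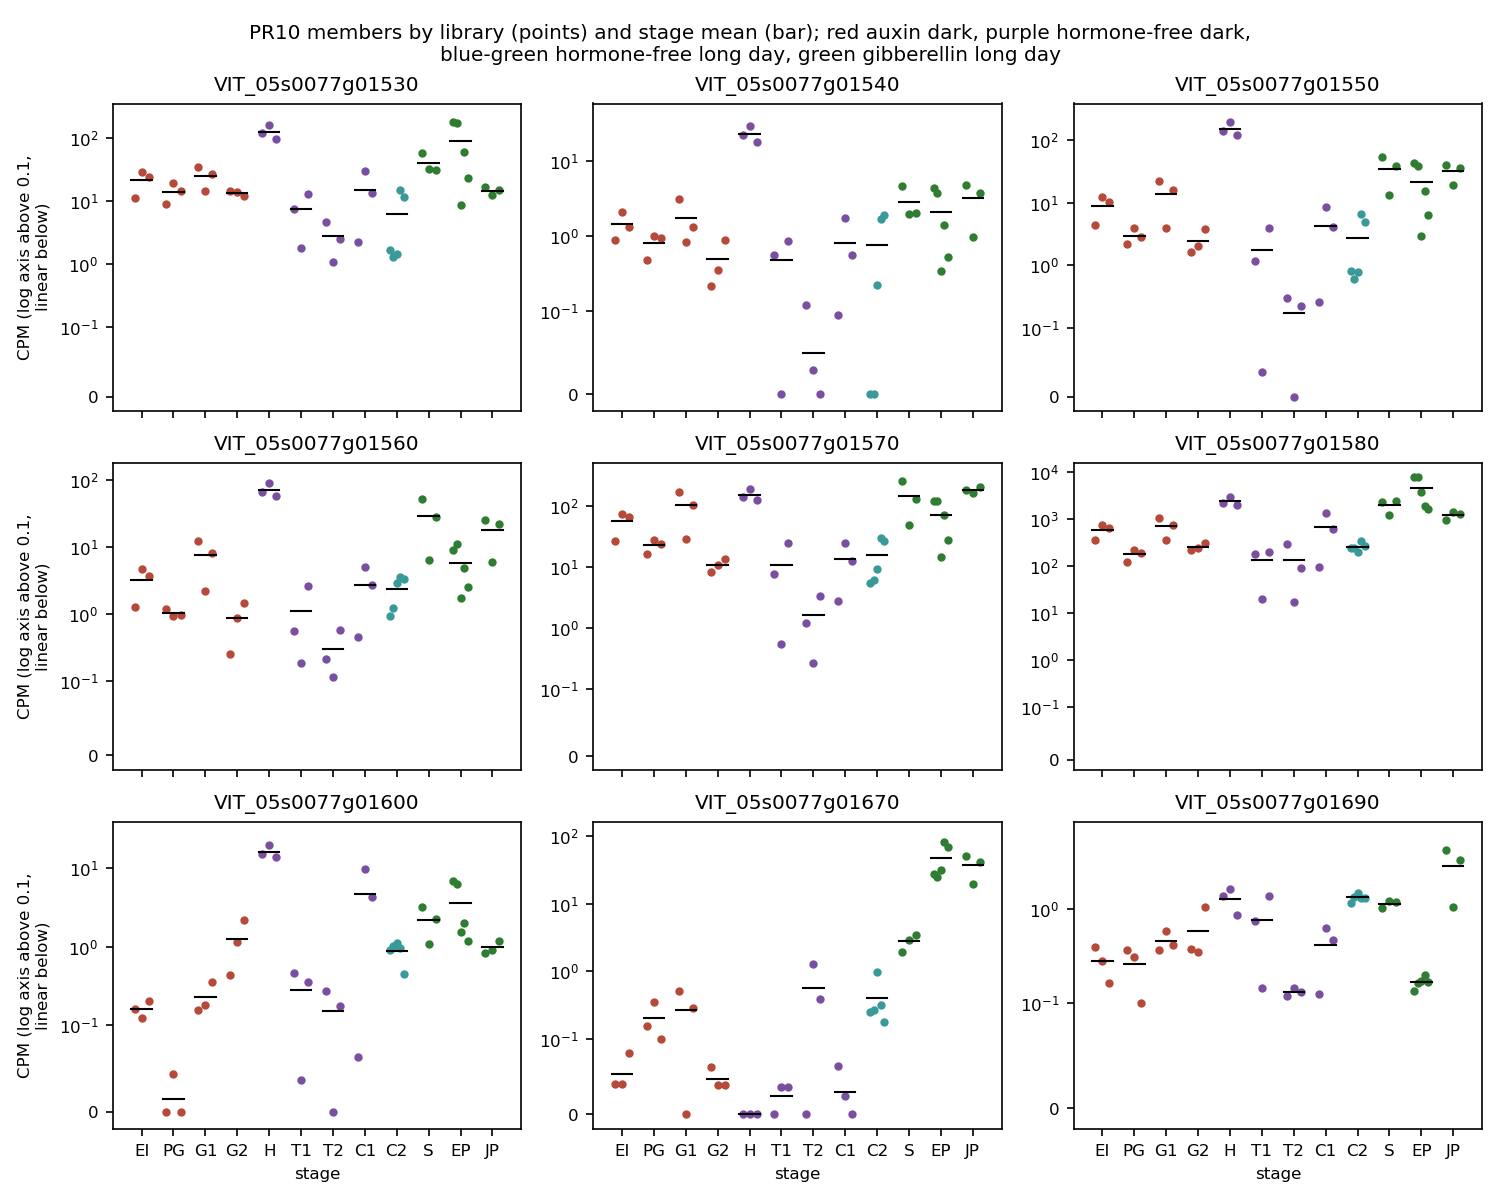
CPM of each of the 9 members (vertical axis, logarithmic above 0.1 and linear below) in each of the 40 libraries by stage (points), with the stage mean as a bar and colours for the 4 culture conditions. The members g01530 to g01600 stand high at H and low at T1 and T2, g01670 had no count at H and was high at EP and JP, and g01690 was low in all 5 EP libraries.

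Summed over the 9 members, the family rose and fell several times along development. The summed level was 689 ± 249 CPM at EI, 219 ± 59.1 at PG, 873 ± 453 at G1 and 287 ± 51.2 at G2 (n = 3 each). It was 2922 ± 598 CPM at H, where the libraries gave 2727, 3592 and 2445. At T1 it was 159 ± 120 and at T2 143 ± 149 CPM, so that no torpedo library, the highest of which had 309 CPM, came near a heart library. C1 followed with 731 ± 673 CPM and C2 with 288 ± 70.7 (n = 5). Single libraries decided 2 of these means, as the T2 sum was 59.3 CPM without replicate 1 and the C1 sum 377 CPM without replicate 2. The seedling libraries gave 2248 ± 780, the EP libraries 4848 ± 3236 (n = 5) and the juvenile plants 1520 ± 196 CPM.

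As a share of all counts in a library, the family took 0.421 ± 0.0789% at H, 0.251 ± 0.0836% at EP, 0.168 ± 0.0476% at S and 0.0173 ± 0.0196% at T2. The order of H and EP thus depended on the scaling. On library totals alone the sum was 4214 CPM at H and 2507 at EP, whereas with TMM factors EP came first, with replicates 1 and 2 at 8228 and 8357 CPM. EP replicates 4 and 5 gave 2132 and 1744 CPM, below all heart libraries. The 2 stages overlapped on the TMM scale.

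**Figure D2:**
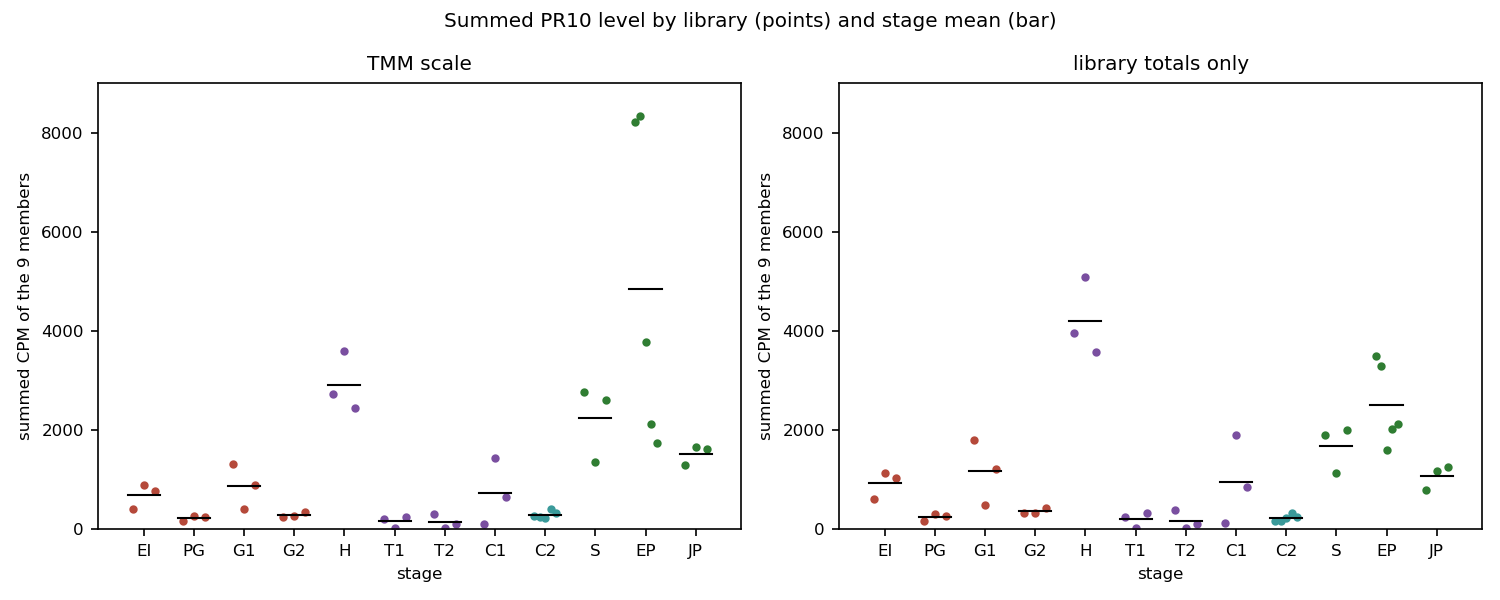
Summed CPM of the 9 PR10 members (vertical axis) per library by stage, with the stage mean as a bar, on the TMM scale at left and on library totals alone at right. The H mean is 2922 and the EP mean 4848 CPM at left, and 4214 and 2507 at right.

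Most of the family's counts came from g01580, from 80.5% at JP to 94.2% at C1 by stage means. These are shares of counts, which grow with the length of a gene, and no lengths were at hand to compare levels between members. The proportions between members also changed between stages: for each 100 counts of g01580 there were 3.48 ± 0.408 counts of g01530 at EI, 7.82 ± 0.904 at PG and 1.24 ± 0.411 at JP.

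A joint rise marked the transition from G2 to H, when the embryos passed from the medium with auxin and cytokinin to hormone-free medium. Of the 8 members with enough counts to be tested, 7 rose, namely g01530, g01540, g01550, g01560, g01570, g01580 and g01600, against 27.6% of all 21485 genes tested. The median log2 fold change of the members was 3.75, beside -0.04 over all genes. For g01580 the G2 libraries held 220, 242 and 310 CPM and the H libraries 2219, 2908 and 2012. The lowest heart library was thus several times the highest G2 library, and the log2 fold change was 3.18 (SE 0.244, adjusted p = 0.000407).

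The steepest rises were those of g01540, g01550 and g01560. For g01560 the G2 libraries held 0.249, 0.861 and 1.47 CPM and the heart libraries 66.4, 90.1 and 58.0 (log2 fold change 6.39, SE 0.515, adjusted p = 0.000429). For g01550 the values were 1.62, 2.03 and 3.78 CPM against 142, 195 and 122 (5.92, SE 0.390, adjusted p = 0.000313). The mean of g01540 went from 0.486 to 23.0 CPM (5.56, SE 0.461, adjusted p = 0.000435). In none of these 3 members did the libraries of the 2 stages overlap.

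The 3 other members that rose did so by smaller steps. The mean of g01530 went from 13.4 to 125 CPM with a log2 fold change of 3.20, that of g01570 from 10.7 to 151 CPM with 3.80, and that of g01600 from 1.24 to 16.3 CPM with 3.70. The level of g01690 was 0.373, 0.352 and 1.04 CPM in G2 and 1.36, 1.64 and 0.854 in H, which overlapped (adjusted p = 0.0904). The member g01670 had 4 counts in the G2 libraries together and none in the 3 heart libraries, which allows a level of up to 0.0241 CPM over the heart libraries by counting error alone, and it was not tested.

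From H to T1, both in hormone-free dark culture, the same 7 members fell, out of 8 tested and beside 14.2% of all genes called lower. The median log2 fold change of the members was -4.88 and that of all genes 0.01. For g01580 the T1 libraries held 186, 19.7 and 204 CPM, each far under the lowest heart library, and the log2 fold change was -4.15 (SE 0.829, adjusted p = 0.0127). For g01550 the T1 libraries held 1.16, 0.0364 and 3.97 CPM (-6.48, SE 1.05, adjusted p = 0.00797), and for g01560 0.561, 0.182 and 2.59 CPM (-6.02, SE 0.799, adjusted p = 0.00532). Replicate 2 was the lowest T1 library for each of the 7.

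The fall of g01600 from 16.3 to 0.282 CPM had the smallest error of the 7 (-5.85, SE 0.540, adjusted p = 0.00261). The call of g01570 (151 to 10.8 CPM, log2 fold change -3.83, adjusted p = 0.0331) was lost when H replicate 1, H replicate 2, H replicate 3 or T1 replicate 1 was left out, with adjusted p of 0.0638, 0.0854, 0.0604 and 0.103. The calls of the other 6 held in each of the 6 fits with 1 library left out. The level of g01690 was 1.28 ± 0.398 CPM at H and 0.755 ± 0.619 at T1 and did not pass the test (adjusted p = 0.374).

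**Figure D3:**
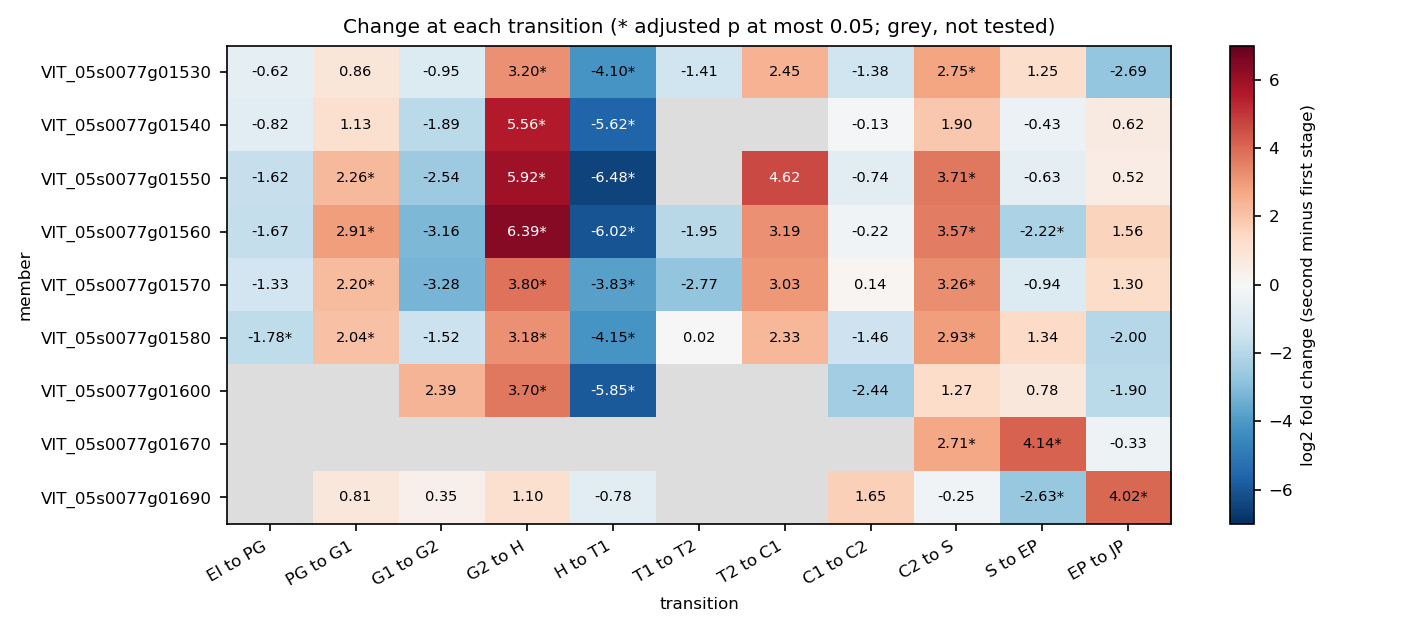
Log2 fold change of each member (rows) at each of the 11 transitions (columns), with an asterisk where the adjusted p was at most 0.05 and grey where the member was not tested. The columns G2 to H and H to T1 hold 7 rises and 7 falls of the same members, and the asterisks of g01670 and g01690 lie in the last 3 columns.

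Before the heart stage, in culture with auxin, few changes of the members passed the test. Each of those was lost in 4 of 6 fits with 1 library left out. From EI to PG only g01580 was called among the 6 members tested, as lower, beside 3.92% of all genes called lower. It stood at 367, 769 and 659 CPM at EI and at 125, 216 and 192 at PG, without overlap (log2 fold change -1.78, SE 0.324, adjusted p = 0.0357). The call was lost without EI replicate 3 or any 1 of the PG replicates (adjusted p = 0.0706 to 0.191). With EI replicate 1 left out, the count of members called rose to 4. The calls over all genes moved in the same way, from 1373 with every library. In the fits that lost g01580, from 0 to 60 genes were called. In the fit with 4 members called, 4501 genes were. Leaving out EI replicate 2 gave 3883 genes, with g01580 still the only member.

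From PG to G1, 4 of 7 members tested rose, g01550, g01560, g01570 and g01580, beside 16.2% of all genes called higher. The G1 libraries of g01580 held 1072, 359 and 737 CPM (log2 fold change 2.04, SE 0.433, adjusted p = 0.0213), and those of g01560 12.0, 2.22 and 8.07 CPM after 1.16, 0.920 and 0.949 at PG (2.91, SE 0.614, adjusted p = 0.0211). G1 replicate 2 was the lowest library of all 4. With any PG replicate or G1 replicate 3 left out, none of the 4 calls remained, at adjusted p of 0.0645 to 0.145. Over all genes 5301 were called with every library, and 674, 1214 and 362 without PG replicates 1, 2 and 3. Without G1 replicate 3 there were 1149.

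From G1 to G2 no member of 8 was called by edgeR, with 0.676% of all genes called. At an unadjusted p under 0.05 there were 7 members and 5057 of all 21442 genes tested. DESeq2 called 5 members, and its calls over all genes are not given here. The log2 fold changes were negative for g01530 to g01580, from -0.95 to -3.28, and 2.39 for g01600 (0.228 to 1.24 CPM, adjusted p = 0.118). For g01570 the G1 libraries held 170, 28.6 and 104 CPM and the G2 libraries 8.27, 10.6 and 13.1, without overlap, at an adjusted p of 0.0662. Without G1 replicate 2, 5 members were called lower, and the calls over all genes rose from 145 to 1298.

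From T1 to C2 no change of a member between successive stages passed the test, and for most members the T1, T2 and C1 libraries of one stage lay far apart. From T1 to T2, 0 of 4 members tested were called by edgeR, beside 2.06% of all genes. At an unadjusted p under 0.05 there were 0 members and 3940 genes, and DESeq2 called 0 members. The T2 libraries of g01580 held 302, 17.4 and 90.9 CPM. Its mean was 137 CPM in both torpedo stages. The other members of g01530 to g01600 had T2 means of 0.0496 to 2.76 CPM, and g01540, g01550 and g01600 had too few counts to be tested.

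From T2 to C1, 0 of 5 members were called, and 0% of the 21412 genes tested. At an unadjusted p under 0.05 there were 4 members and 1810 genes, and DESeq2 called 3 members and 511 genes. The C1 libraries of g01580 held 94.4, 1360 and 615 CPM, so that replicate 1 lay within the range of T2 and replicates 2 and 3 above it (log2 fold change 2.33, SE 1.23, adjusted p = 0.579). The order was the same for g01600, at 0.0634, 9.76 and 4.36 CPM, and for g01550, at 0.253, 8.54 and 4.08 CPM. Replicate 1 was the lowest C1 library of all 7 members from g01530 to g01600 and replicate 2 the highest.

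From C1 to C2, when the embryos moved from dark to long days, 0 of 8 members were called by edgeR, beside 22.3% of all genes. At an unadjusted p under 0.05 there were 3 of the 8 members and 9082 of all 22462 genes tested. DESeq2 called 3 members, without its calls over all genes being given here. The C2 libraries of g01580 held 247, 241, 198, 338 and 269 CPM, a narrower range than in C1. Without C1 replicate 1, g01580 and g01600 were called lower. Several members split the C2 libraries: g01530 stood at 1.67, 1.28 and 1.43 CPM in replicates 1 to 3 and at 14.9 and 11.5 in replicates 4 and 5. The same held for g01550, at 0.809, 0.608 and 0.771 against 6.54 and 4.85 CPM, and g01580 showed the same order in its narrower range.

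From C2 to S, at the move onto the medium with gibberellin and IAA, the family rose again. Of 9 members tested, 6 were higher in seedlings, g01530, g01550, g01560, g01570, g01580 and g01670, beside 16.1% of all genes called higher, and 5 of these 6 had also risen from G2 to H. The median log2 fold change was 2.75 for the members and -0.04 for all genes. For g01580 the seedling libraries held 2349, 1244 and 2379 CPM, all above the 5 C2 libraries (log2 fold change 2.93, SE 0.239, adjusted p = 0.00031). For g01570 they held 254, 48.7 and 126 CPM after 5.31 to 29.2 at C2 (3.26, SE 0.652, adjusted p = 0.00766).

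The mean of g01550 rose from 2.71 to 35.4 CPM (3.71, adjusted p = 0.0078) and that of g01560 from 2.35 to 28.4 CPM (3.57, adjusted p = 0.00431). For g01530, which went from 6.15 to 40.6 CPM (2.75, adjusted p = 0.0246), the call was lost without S replicate 1, 2 or 3, at adjusted p of 0.0902, 0.0515 and 0.0590. The members g01540 (0.762 to 2.87 CPM, adjusted p = 0.198), g01600 (0.884 to 2.19 CPM, adjusted p = 0.0629) and g01690 (1.32 to 1.14 CPM, adjusted p = 0.562) did not pass.

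The members at the far end of the range, g01670 and g01690, were called in the late stages. The level of g01670 was 0.253, 0.270, 0.991, 0.318 and 0.178 CPM in C2 and 1.95, 2.95 and 3.44 in S, a rise without overlap (log2 fold change 2.71, SE 0.578, adjusted p = 0.00984). It rose once more in EP, to 27.3, 24.9, 31.5, 81.8 and 69.1 CPM (4.14, SE 0.488, adjusted p = 0.000687). In JP it held 50.5, 19.6 and 41.9 CPM, which overlapped with EP (-0.33, adjusted p = 0.681). From EI to C1, 14 of the 24 libraries had at most 1 count of g01670, and the highest of them was T2 replicate 2 with 45 counts.

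From S to EP, g01670 was 1 member called higher of 9, with 16.1% of all genes called higher, and g01560 and g01690 were called lower, with 13.9% of all genes called lower. The level of g01690 was 1.02, 1.22 and 1.17 CPM in S and 0.136, 0.164, 0.172, 0.197 and 0.168 CPM in EP, from 1 to 14 counts per EP library (log2 fold change -2.63, SE 0.343, adjusted p = 0.00095). From EP to JP it was the member called of 9, as higher, at 4.19, 1.04 and 3.31 CPM, with 2.46% of all genes called higher (4.02, SE 0.496, adjusted p = 0.00582). Both calls of g01690 held in all fits with 1 library left out and with either set of EP libraries alone.

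The fall of g01560 from S (51.6, 6.36 and 27.3 CPM) to EP (from 1.72 to 11 CPM) overlapped between the stages (-2.22, SE 0.713, adjusted p = 0.0423). It was lost without S replicate 1 or 3 or EP replicate 3, 4 or 5, at adjusted p of 0.0699 to 0.209. The level of g01580 in EP was 7841, 7977 and 3716 CPM in replicates 1 to 3 and 1896 and 1614 in replicates 4 and 5, and did not pass the test against S (1.34, SE 0.711, adjusted p = 0.18). With EP replicates 1 to 3 alone it was called higher than in S, and with replicates 4 and 5 alone it was not. On this TMM scale the order of g01670 among the EP libraries was the reverse: its lowest values were in replicates 1 to 3. On library totals alone g01580 held 3328, 3143, 1568, 1798.5 and 1974 CPM in EP replicates 1 to 5, so that its sets overlapped. There g01670 held 11.6, 9.79, 13.3, 77.6 and 84.4 CPM, and its sets stayed apart.

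**Figure D4:**
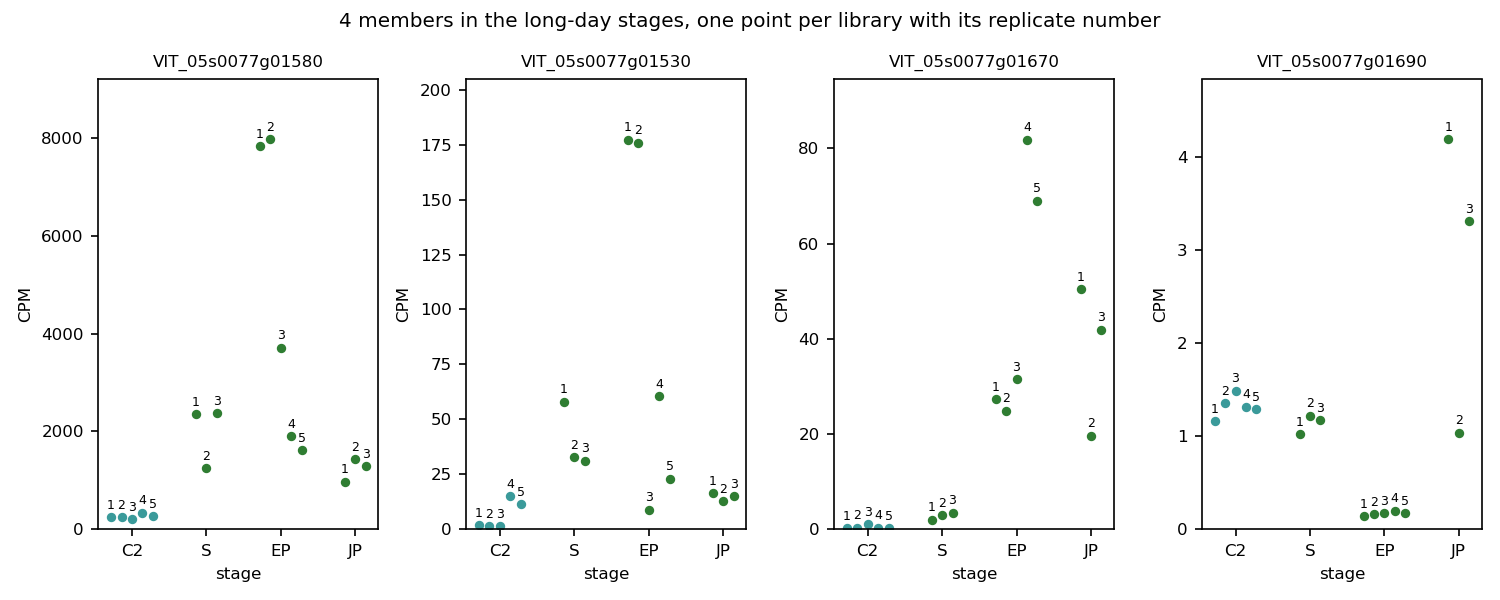
CPM on the TMM scale (vertical axis, from 0) of g01580, g01530, g01670 and g01690 in each library of C2, S, EP and JP, with the replicate number above each point. EP replicates 1 and 2 stand at 7841 and 7977 CPM for g01580, EP replicates 4 and 5 at 81.8 and 69.1 CPM for g01670, and all EP libraries of g01690 at or under 0.197 CPM.

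Contrasts of whole culture conditions, fitted over all 40 libraries, were next made on the log scale. Hormone-free against auxin culture in the dark gave 1 member higher, g01600 (log2 fold change 2.93, SE 0.579, adjusted p = 0.000102), with 22.8% of all genes called higher, and 1 lower, g01570 (-1.32, SE 0.453, adjusted p = 0.0179), with 20.8% called lower. The stages within the hormone-free dark condition differed widely: g01570 stood at 151 CPM in H and at 1.61 in T2. Its plain means over the stages of each condition were 44.3 CPM hormone-free and 47.3 CPM with auxin. For g01600 the hormone-free means were 16.3 CPM at H and 4.73 at C1, but 0.282 at T1 and 0.148 at T2. With auxin its mean reached 1.24 CPM at G2, and the PG libraries together held 1 count. The libraries of both conditions overlapped for g01600.

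Hormone-free culture in long days, which is C2 alone, against hormone-free dark culture gave g01670 (3.34, SE 0.757, adjusted p = 0.000524) and g01690 (1.45, SE 0.342, adjusted p = 0.000731) as higher, with 32.2% of all genes called higher. The plain means of g01670 were 0.402 CPM in C2 and 0.154 CPM in hormone-free dark culture, where the H libraries held no count, and the libraries overlapped, since T2 replicate 2 lay above every C2 library. For g01690 the C2 mean was 1.32 CPM and the H mean 1.28, and the libraries of both conditions overlapped too. On library totals alone, 1 member was called higher and 2 lower in this contrast, and the edgeR call of g01690 was lost (0.733, adjusted p = 0.0965). Gibberellin long-day culture against C2 gave 7 of 9 members higher, all but g01600 and g01690, with 23.9% of all genes called higher. Among these were g01670 (5.40, SE 0.638, adjusted p = 5.46e-08) and g01580 (3.12, SE 0.590, adjusted p = 4.96e-05). The call of g01540 (1.71, adjusted p = 0.0492) was lost in 25 of 40 fits with 1 library left out.

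The members g01530 to g01580 varied together, and g01600 did so less closely. Pearson's r between the 12 stage means of log2 CPM ran from 0.468 to 0.974 over the 21 pairs of g01530 to g01600, with a median of 0.864. The closest pair was g01540 and g01550. The pairs with g01600 ran from 0.468, with g01570, to 0.727, with g01580. The deviations of the libraries from their stage means also went together, with a median r of 0.774 over these pairs, so that a library high in one of the members tended to be high in the others. The points share library, depth and scaling, and reads exchanged between similar copies would have the same result, which was not tested.

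Against the 7 members from g01530 to g01600, g01670 had a median r of 0.314 over stage means and -0.154 over the deviations, and g01690 of 0.488 and 0.443. Among 24861 other genes, the gene with the pattern nearest to g01530, g01540, g01550, g01560 or g01570 was in each case another member. The nearest other member ranked 29 for g01580, 110 for g01690, 255 for g01600 and 5897 for g01670.

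**Figure D5:**
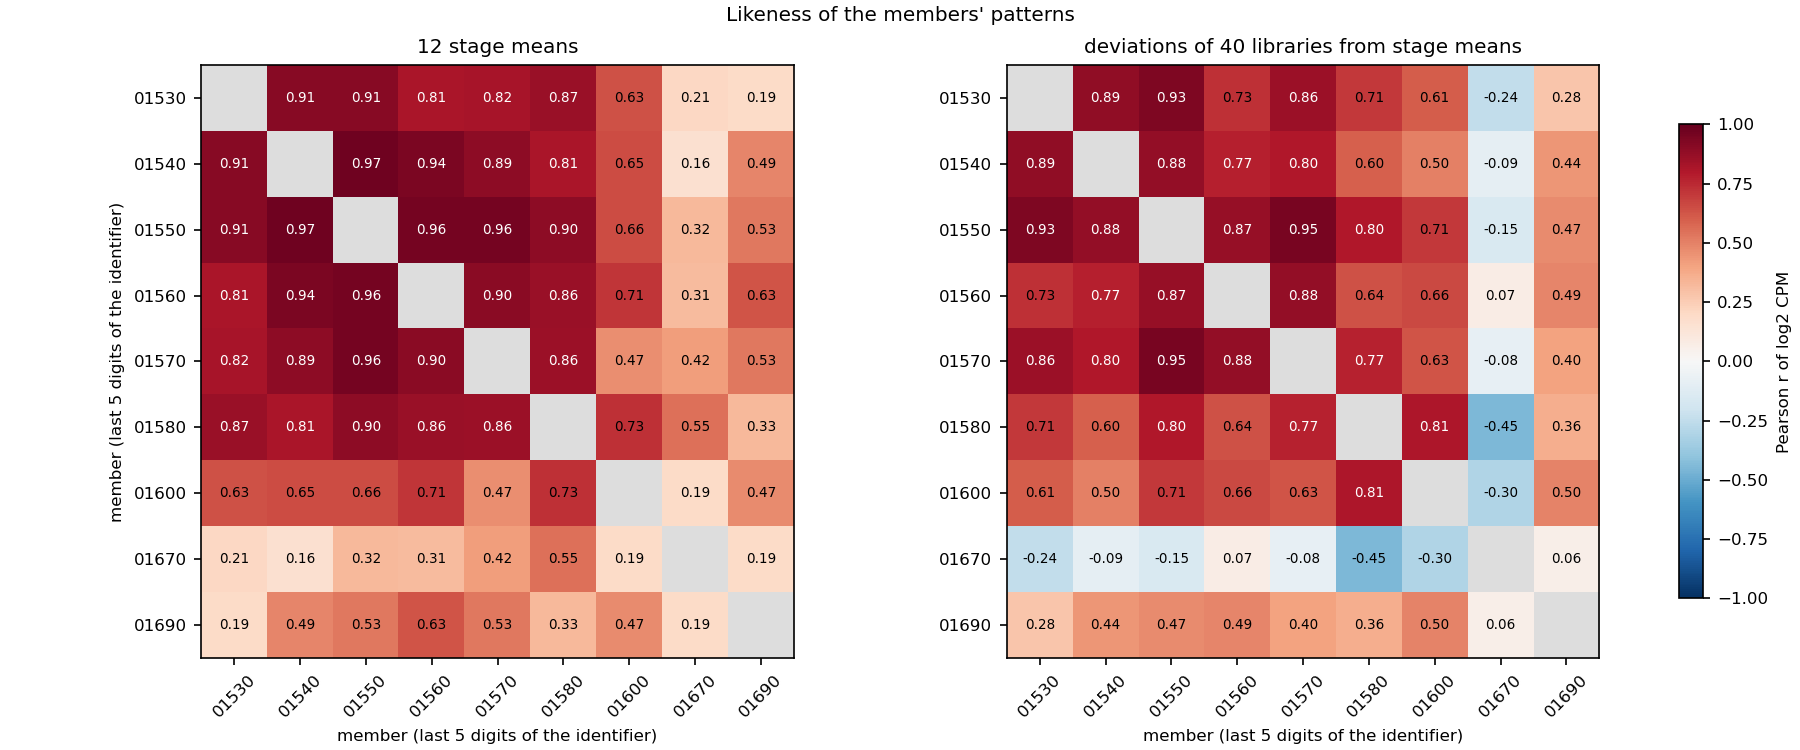
Pearson's r of log2 CPM between each pair of members, over the 12 stage means at left and over the deviations of the 40 libraries from their stage means at right. The block from g01530 to g01580 holds values from 0.81 to 0.97 at left, and the row of g01670 holds values from 0.16 to 0.55 at left and from -0.45 to 0.07 at right.

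The 2 genes outside the list with the pattern most like g01580 were VIT_05s0077g01680 (r = 0.966 over 12 stage means) and VIT_13s0067g03820 (r = 0.957). The first lies by its number between g01670 and g01690. It had 1.05 ± 0.530 CPM at EI, 3.84 ± 0.764 at H, 0.0943 ± 0.0529 at T1, 6.28 ± 3.05 at EP and 3.48 ± 0.864 at JP. In every stage it had few counts beside g01580, with stage means of 0.104 to 0.362 for each 100 counts of that member. VIT_13s0067g03820 had 139 ± 23.4 CPM at H, 19.8 ± 14.9 at T1, 145 ± 5.66 at S and 150 ± 74.2 at EP.

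Flanking genes were called in both directions at the same steps. None of the few other rows tested inside the range was called against the family at these steps, though not all of them rose with it. Inside the range of identifiers 7 more rows were present, of which 4 passed the filter over all stages, and 10 identifiers on either side made 20 flanking genes, all of which passed. From G2 to H, 7 of 18 flanking genes tested were higher and 1 lower, with a median log2 fold change of 0.09, beside 27.6% of all genes higher and 28.9% lower. From H to T1, 2 were higher and 4 lower of 18 with a median of 0.06, beside 17.5% of all genes higher and 14.2% lower. From C2 to S, 5 were higher and 3 lower of 19 with a median of 0.52, beside 16.1% of all genes higher and 11.5% lower. Of the other rows inside the range, 1 of 2 tested rose from G2 to H and 2 of 2 fell from H to T1. From C2 to S, 2 of 4 rose, but the median log2 fold change of the 4 was -0.51, beside 2.75 for the members. In gibberellin long-day culture against C2, 2 of the 4 were called higher and 2 lower, beside 55.1% of all genes called. The 2 flanking genes with the highest mean CPM were VIT_05s0077g01500, whose highest stage mean was 323 CPM at C2 with 88.7 ± 27.0 at H, and VIT_05s0077g01430, with 131 CPM at EP and 79.5 ± 5.33 at H.

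Other genes of defence were taken from the 81 genes that carry the annotation of response to biotic stimulus in the part of the study's gene ontology table at hand, which holds none of the members. From G2 to H, 17 of 58 tested were higher and 20 lower, with a median log2 fold change of -0.15. Higher or lower together these were 63.8% of the list, beside 56.5% of all genes. From H to T1, 12 were higher and 11 lower of 57 with a median of 0.21, or 40.4% called beside 31.7% of all genes. From C2 to S, 15 were higher and 7 lower of 60 with a median of 0.12, or 36.7% called beside 27.6% of all genes. Their highest stage mean was at H for 6 of the 62 that passed the filter over all stages and at EP for 11. At H the members were 5 of 9, and over all genes 13.2% had their highest mean there and 11.4% at EP. These peaks are all on the TMM scale.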

How the data were processed

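Per the study's methods, RNA freed of ribosomal RNA was sequenced in pairs and mapped to the 12X assembly with BBMap, files were sorted with SAMtools 1.11, and the authors deposited raw read counts per open reading frame, made in R 4.0.4. The treatment of strand and of reads with several mapping places was not given in any source used here. The labels call the libraries replicates, and the p-values set the differences between stages against the spread between these replicates.

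From the counts, edgeR 4.0.16 (R 4.3.3) was run with TMM factors, filterByExpr, its quasi-likelihood test and Benjamini-Hochberg adjustment over all genes tested, with calls at an adjusted p of at most 0.05. Each transition was fitted on its 2 stages, and the F test and conditions on all 40 libraries. SE is the log2 fold change divided by the root of F. Correlations used log2 CPM with a prior count of 2. DESeq2 1.42.0, other scalings, no filter, a replicate block and leaving out each library were alternatives, and the sets of EP libraries were added after seeing the data. Tests were checked on simulated data. No replicate pair agreed within sampling noise. The floor of 3 counts covers counting error only. The genes named are the 9 members, the 2 genes most like g01580 and the 2 neighbours with the highest mean CPM. Members and lists were chosen with earlier results of these data known. The RefSeq gene table, of another assembly, lists 8 PR10 symbols on chromosome 5 but matched 0 of the identifiers, so no sequences are shown.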

Additional observations from a re-analysis of the deposited data

Results flagged for a closer look

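In the stages with 5 libraries, C2 and EP, each member was examined for a library far from the others, in 18 groups of values. One was found: g01670 in C2 replicate 3 stood at 0.991 CPM (18 counts), with the nearest other C2 library at 0.318 CPM, a gap of 0.828 of the whole range of the group. About 1 in 20 groups is singled out in this way by chance.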

How the results depend on the processing

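Of 237 values for the 40 called changes of single members under other settings, 225 kept the call, 12 kept the direction only and 0 reversed; with 1 library left out, 577 of 634 kept the call, 57 kept the direction only and 0 reversed. All 9 members differed over the stages under every setting, and 7 were called from G2 to H in every setting but library totals and the fit without G2 replicate 3 (8 each). Counts of members called moved as follows, each transition being given by the stage it leads into. With 1 model of all stages they were 0 into PG, 1 into G1, 2 into T2, 5 into C1 and 3 into C2. On library totals alone they were 4 into PG and 2 into C2, and with the size factors of DESeq2 1 into C2. DESeq2 itself called 4 into PG, 5 into G2, 3 into C1, 3 into C2 and 4 into JP. With EP replicates 1 to 3 alone 4 members were called into JP, and with EP replicates 4 and 5 alone 5 into JP and 5 into EP. The causes were not tested.

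Same-numbered libraries did not deviate together: at none of the 11 transitions were all 3 correlations over 0.1 (-0.47 to 0.25), so the numbers do not pair the libraries. The fits with a replicate block used replicates 1 to 3 of each stage only, so they also left out replicates 4 and 5 of C2 and EP. In them 1 member was called into G1, 4 into JP and 5 in C2 against hormone-free dark culture. The other 12 counts stayed within 1.5 times. Into JP, EP replicates 1 to 3 without a block gave the same 4 calls, so the block and the libraries left out cannot be told apart there.

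With 1 library left out, the counts ran from 9 to 9 over the stages, 0 to 4 into PG, 0 to 5 into G1, 0 to 5 into G2, 7 to 8 into H, 6 to 7 into T1, 0 to 0 into T2 and into C1, 0 to 2 into C2, 5 to 7 into S, 2 to 3 into EP and 1 to 1 into JP; for the conditions they were 2 to 3, 2 to 3 and 6 to 8. On library totals the summed level was 357 CPM at G2, 4214 at H and 1074 at JP, and the median log2 fold change of all genes shifted by over 0.1 at 8 transitions, most of all into C2, to -0.73. The median r over all 36 pairs of members was 0.65, and 0.55 by Spearman's method. Few counts limit g01670 before C2 and g01690 in EP.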
